A study of Mus musculus with 6 samples.

Results

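The genes of branched-chain amino acid breakdown described here were *Bcat2*, *Bckdha*, *Bckdhb*, *Dbt*, *Bckdk*, *Ppm1k*, *Ivd*, *Mccc1*, *Mccc2* and *Hibch*. They were taken by gene symbol from a table of 24532 genes, and all 10 were found in it and passed the filter on low counts. RNA-seq was carried out on gastrocnemius (GAS) muscle, 1 library per animal, in 2 groups of 3 mice, WT and *Sirt6* KO by their labels. All animals were males of about 20 weeks, C57BL/6 by their labels, and carried the homozygous *Sirt6* flox allele, whose source line is given differently in the methods and in the reporting summary. The *Sirt6* KO mice also carried *Myl1*-Cre, a driver that acts mostly in fast (type II) fibers once they are postmitotic, and the WT littermates carried no Cre. A bulk library holds these fibers together with slow fibers and the other cells of the muscle.

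Leucine, isoleucine and valine are largely broken down outside the liver, and skeletal muscle is a main site of the first step. The transaminase removes the amino group, and the branched-chain α-keto acid dehydrogenase (BCKDH) complex then decarboxylates the keto acid irreversibly. A kinase switches that complex off by phosphorylation of its E1α subunit and a phosphatase switches it on, after which each amino acid follows its own branch of mitochondrial enzymes. In muscle the pathway is known as one that the coactivator PGC-1α raises.

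The start of *Hibch* is shown because *Hibch* was the only member that passed the test between the groups. That of *Ppm1k* is shown because it was the only member whose window held the half-site of the cAMP response element, which the transcription factor CREB binds. Both are RefSeq sequence on GRCm38.p6, read 5′ to 3′ on the strand of the gene and ending at the base before its outermost annotated start, at chr1:52844788-52845037 on the plus strand for *Hibch* and chr6:57535553-57535737 on the minus strand for *Ppm1k*, and capitals mark TGACG.
*Hibch*: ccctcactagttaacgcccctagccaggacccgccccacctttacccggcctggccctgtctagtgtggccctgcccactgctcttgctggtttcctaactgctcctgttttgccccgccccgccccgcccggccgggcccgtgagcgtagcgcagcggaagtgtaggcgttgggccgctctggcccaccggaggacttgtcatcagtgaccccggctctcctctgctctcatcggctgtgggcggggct
*Ppm1k*: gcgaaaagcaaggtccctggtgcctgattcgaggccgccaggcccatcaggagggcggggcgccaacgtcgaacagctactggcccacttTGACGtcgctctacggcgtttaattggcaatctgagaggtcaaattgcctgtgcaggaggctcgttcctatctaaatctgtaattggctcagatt
The TGACG of *Ppm1k* began 95 bases before the start. Windows from 250 bases before to 50 bases after a start were on hand for 9 of the 10 members, 11 windows in all, with none for *Dbt*. Searched on both strands, TGACG was in 1 of the 11 windows and in 20.8% of all 32851 windows of the genome. The full element TGACGTCA, which contains TGACG, was in 0 of 11 and in 1.79% of all windows. The estrogen-related receptor element TNAAGGTCA was in 0 of 11 and in 1.28% of all windows. These matches describe letters in a window and no more.

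The libraries held between 44845763 and 63016899 counts on genes, and the members' raw counts lay between 440 and 15830. *Sirt6*, the targeted gene, was at a CPM (counts scaled to library size) of 2.77, 2.23 and 2.88 in WT 1, 2 and 3 and of 7.81, 7.44 and 6.68 in *Sirt6* KO 1, 2 and 3. It was thus higher in the libraries labelled *Sirt6* KO, against the direction of a deletion (log2 fold change 1.48 ± 0.17 (SE), adjusted p = 0.0113 in edgeR's quasi-likelihood test). The deposited count covers the whole gene and does not separate the floxed part, so *Sirt6* KO stands for a label throughout. That adjusted p was 0.0606 with *Sirt6* KO 1 left out and 0.065 with *Sirt6* KO 3 left out.

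The libraries also differed in a way that the groups did not explain. The summed level of 8 slow muscle markers was 7302, 8166 and 1389 CPM in WT 1, 2 and 3 and 1672, 4793 and 2071 CPM in *Sirt6* KO 1, 2 and 3. Of that sum *Myh2*, the MyHC-IIa gene, made 3732, 5223 and 1256 CPM in WT and 1313, 2694 and 1571 CPM in *Sirt6* KO. *Myh7*, the MyHC-I gene, varied more widely, at 1138, 958 and 21.7 CPM in WT and 100, 720 and 163 CPM in *Sirt6* KO. The beta-globin gene *Hbb-bt* had 2766, 2457 and 1908 counts in WT 1, WT 2 and *Sirt6* KO 2 and 0 counts in the other 3 libraries. The 3 libraries with *Hbb-bt* counts were thus the 3 with the highest slow muscle sums. The 0 counts were particular to *Hbb-bt*, since the other erythroid markers *Hba-a1*, *Hba-a2*, *Hbb-bs* and *Alas2* had counts in every library. The other beta-globin gene, *Hbb-bs*, had 6600, 5890 and 1321 counts in WT 1, 2 and 3 and 3039, 4109 and 2126 in *Sirt6* KO 1, 2 and 3. Summed adipocyte markers spanned 123 to 251 CPM in WT and 161 to 286 CPM in *Sirt6* KO. Of that sum *Fabp4* made 119 to 204 CPM in WT and 137 to 175 CPM in *Sirt6* KO. *Adipoq* varied more widely, from 0.768 CPM in WT 3 to 19.0 CPM in *Sirt6* KO 2. *Cfd* was at 2.83 and 82.6 CPM in the same libraries. Summed fast muscle markers spanned 129107 to 203409 CPM in WT and 191895 to 216690 CPM in *Sirt6* KO. Of 41 marker genes of 8 cell types, 0 passed in edgeR (4 at an unadjusted p under 0.05, 4 with DESeq2 and 0 with limma), and only *Hbb-bt* and *Lep* had 0 counts in any library. Over all 13801 genes tested, 4875 had an unadjusted p under 0.05 in edgeR. What part these differences between libraries had in the results was not tested beyond the fits named here.

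Between the groups, 1 of the 10 members was lower in *Sirt6* KO, 0 were higher and 9 did not pass at an adjusted p under 0.05 in edgeR (0 higher also with DESeq2 and limma, and 1, *Mccc2*, at an unadjusted p under 0.05). Of all 13801 genes tested, 8.39% were lower and 7.85% higher by the same rule. *Hibch* was the member that fell. A total of 3 members (*Hibch*, *Mccc2* and *Dbt*) had an unadjusted p under 0.05, against 4875 of all 13801 genes tested. That count over all genes was not made by direction or with the GC trend removed, here or below. The log2 fold changes were negative for 5 members and positive for 5, with a median of -0.03 against -0.02 for all genes. The groups did not overlap for *Hibch*, with *Sirt6* KO below WT (19.6% of all genes), and for *Mccc2*, with *Sirt6* KO above WT (20.3% of all genes). No member changed by over 2-fold with an unadjusted p under 0.05, the rule of the study's volcano plot, which 4.69% of all genes met on the lower side and 3.14% on the higher side. In these bulk libraries, fewer cells of a type and less RNA per cell cannot be told apart.

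**Figure D1:**
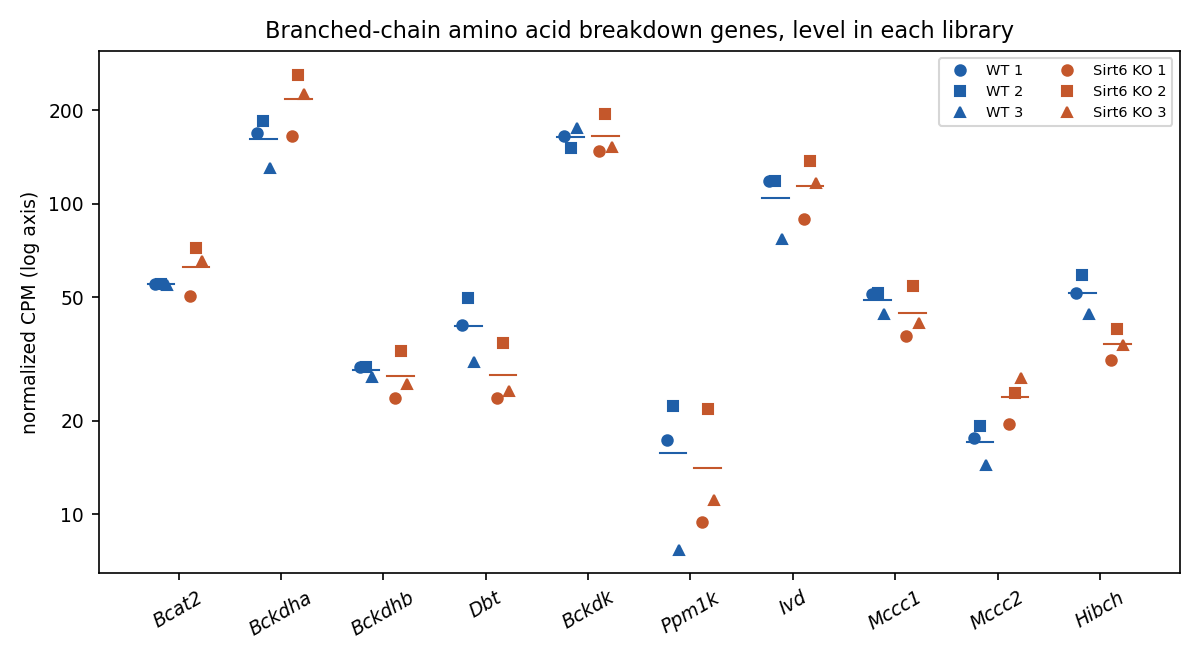
Level of each of the 10 genes in each library, as normalized CPM on a log axis; marks are single libraries and bars are group means of 3. Only *Hibch*, with *Sirt6* KO lower, and *Mccc2*, with *Sirt6* KO higher, show groups that do not overlap.

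Per length, *Bckdha* was the most abundant member in both groups, at 202 ± 52.1 TPM (SD, n = 3; counts scaled to transcript length and to a fixed sum) in WT and 247 ± 49.2 TPM in *Sirt6* KO. *Bckdk* followed at 126 ± 11.8 and 117 ± 16.3 TPM, with *Ivd* at 113 ± 35.7 and 112 ± 21.2 TPM. *Bckdk* and *Ivd* overlapped within 1 SD in each group. The next members in WT were *Bcat2* at 68.1 ± 7.89, *Hibch* at 62.1 ± 13.9, *Bckdhb* at 43.2 ± 6.42, *Mccc1* at 36.3 ± 6.74, *Dbt* at 27.3 ± 8.25 and *Mccc2* at 17.8 ± 4.09 TPM, and each of these overlapped the one after it within 1 SD. In *Sirt6* KO the same genes stood at 71.3 ± 10.9 (*Bcat2*), 38.9 ± 3.6 (*Hibch*), 37.9 ± 6.31 (*Bckdhb*), 30.02 ± 5.44 (*Mccc1*), 17.2 ± 3.73 (*Dbt*) and 22.7 ± 3.21 TPM (*Mccc2*), where *Dbt* and *Mccc2* overlapped within 1 SD. *Ppm1k* was the least abundant, at 6.40 ± 3.34 TPM in WT and 5.11 ± 2.34 TPM in *Sirt6* KO. Summed over the members, the level was 795, 775 and 537 TPM in WT 1, 2 and 3 and 588, 819 and 688 TPM in *Sirt6* KO 1, 2 and 3, and the groups overlapped.

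*Bcat2* (NCBI gene 12036, chr7:45568967-45589710), the mitochondrial transaminase of the first step, was at 55.3, 55.1 and 54.6 CPM in WT and at 50.3, 72.1 and 65.6 CPM in *Sirt6* KO. The WT libraries were nearly level, and the *Sirt6* KO libraries lay on both sides of them. Its log2 fold change was 0.19 ± 0.14 (SE, adjusted p = 0.374, edgeR). The long non-coding RNA *0610005C13Rik* overlaps *Bcat2*, and whether the counting used the strand is not given in the sources used here. The cytosolic transaminase *Bcat1* was at 0.705 ± 0.504 CPM in WT and 0.391 ± 0.184 CPM in *Sirt6* KO (SD, n = 3; adjusted p = 0.346, edgeR).

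*Bckdha* (NCBI gene 12039, chr7:25629852-25658782), which encodes the E1α subunit of BCKDH and the site of its regulation, was at 169, 185 and 131 CPM in WT and at 165, 261 and 225 CPM in *Sirt6* KO. *Sirt6* KO 2 and 3 were above every WT library, and *Sirt6* KO 1 was within the WT range. The log2 fold change was 0.43 ± 0.20 (SE, adjusted p = 0.178, edgeR). It was 0.19 with the trend over GC content, described below, removed (adjusted p = 0.561, edgeR). Among the libraries with *Hbb-bt* counts the *Sirt6* KO library was above both WT libraries by 0.56 on the log2 scale, and among those without it both *Sirt6* KO libraries were above the WT library, also by 0.56, with 1 group on each side being a single library. *Bckdha* was higher in *Sirt6* KO with the *Hbb-bt* split as a covariate (log2 fold change 0.57 ± 0.14 (SE), adjusted p = 0.0352, edgeR). This fit was chosen after the data were seen, and 8.56% of all genes were higher by it. Over all genes, 26.5% were above WT on both sides of the split.

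*Bckdhb* (NCBI gene 12040, chr9:83925111-84124240), the E1β subunit that pairs with E1α, was at 29.9, 29.7 and 27.7 CPM in WT and at 23.7, 33.7 and 26.3 CPM in *Sirt6* KO. The *Sirt6* KO libraries spanned the WT values on both sides (log2 fold change -0.06 ± 0.14 (SE), adjusted p = 0.798, edgeR). *Dbt* (NCBI gene 13171, chr3:116513070-116549981) encodes the E2 core, the lipoyl-bearing transacylase. It was at 40.8, 49.7 and 30.8 CPM in WT and at 23.6, 35.5 and 24.9 CPM in *Sirt6* KO. Only *Sirt6* KO 2 reached into the WT range, above WT 3. The log2 fold change was -0.53 ± 0.22 (SE, unadjusted p = 0.0441, adjusted p = 0.132, edgeR). It was -0.27 after the trend over GC content, described below, was removed. Without WT 3, *Dbt* passed at an adjusted p of 0.0417 (edgeR), where 2219 of 14115 genes were lower. Over the 15 alternative fits its adjusted p lay between 0.0417 and 0.441.

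*Bckdk* (NCBI gene 12041, chr7:127904073-127909664), the kinase that inhibits BCKDH, was at 166, 152 and 175 CPM in WT and at 149, 194 and 153 CPM in *Sirt6* KO. It had the narrowest spread of the 10, with a highest library 1.31 times the lowest. Its log2 fold change was 0.01 ± 0.14 (SE), with a 95% interval from -0.32 to 0.34. *Ppm1k* (NCBI gene 243382, chr6:57506502-57535552), the phosphatase that activates BCKDH, was at 17.3, 22.4 and 7.68 CPM in WT and at 9.47, 21.8 and 11.1 CPM in *Sirt6* KO. WT 1, WT 2 and *Sirt6* KO 2, the libraries with the high slow muscle sums, were high, and the other 3 were low. It had the widest spread of the 10, with a highest library 2.91 times the lowest, and a 95% interval for its log2 fold change of -0.16 that ran from -1.18 to 0.86. The log2 fold change turned to 0.16 with the GC trend removed and to 0.27 with the *Hbb-bt* split as a covariate, and neither passed.

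In the leucine branch, *Ivd* (NCBI gene 56357, chr2:118861959-118882909), isovaleryl-CoA dehydrogenase, was at 119, 119 and 77.3 CPM in WT and at 89.3, 138 and 116 CPM in *Sirt6* KO. The groups overlapped, and WT 3 was the lowest library (log2 fold change 0.13 ± 0.22 (SE), adjusted p = 0.707, edgeR). *Mccc1* (NCBI gene 72039, chr3:35956292-36000694) encodes the biotin-bearing α subunit of methylcrotonyl-CoA carboxylase. It was at 51.2, 51.7 and 44.3 CPM in WT and at 37.5, 54.3 and 41.3 CPM in *Sirt6* KO, with overlapping groups (log2 fold change -0.15 ± 0.16 (SE), adjusted p = 0.539, edgeR). The RNA *Mccc1os* overlaps *Mccc1*, with the same limit on strand as for *Bcat2*.

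*Mccc2* (NCBI gene 78038, chr13:99948532-100015639), the β subunit of that carboxylase, was at 17.6, 19.2 and 14.4 CPM in WT and at 19.6, 24.6 and 27.6 CPM in *Sirt6* KO. Each *Sirt6* KO library was above each WT library, by the least between *Sirt6* KO 1 and WT 2. The log2 fold change was 0.49 ± 0.17 (SE) with a 95% interval from 0.10 to 0.88 (unadjusted p = 0.0205, adjusted p = 0.0849, edgeR), so *Mccc2* did not pass over all genes. Its adjusted p lay between 0.0507 and 0.254 over the 15 alternative fits.

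In the valine branch, *Hibch* (NCBI gene 227095, chr1:52845038-52920986), the 3-hydroxyisobutyryl-CoA hydrolase, was at 51.6, 59.1 and 44.1 CPM in WT and at 31.4, 39.5 and 35.2 CPM in *Sirt6* KO. Each *Sirt6* KO library was below each WT library, at 35.4 ± 4.06 CPM against 51.6 ± 7.47 CPM (SD, n = 3). It fell by 0.54 ± 0.14 (SE) on the log2 scale, with a 95% interval from -0.88 to -0.21 (adjusted p = 0.0425, edgeR). The fall was 0.48 on the log2 scale among the libraries with *Hbb-bt* counts and 0.41 among those without, where 1 group on each side is a single library. With that split as a covariate, chosen after the data were seen, the adjusted p was 0.0294 (edgeR). By that fit 9.58% of all genes were lower. The call was lost with the GC trend removed (log2 fold change -0.43, adjusted p = 0.0993, edgeR), without a filter on low counts (adjusted p = 0.0549, edgeR) and in limma at pseudocounts of 1 and 0.1 (adjusted p = 0.0513 and 0.0639). It was also lost when WT 1 (adjusted p = 0.118), WT 2 (0.129), *Sirt6* KO 1 (0.143), *Sirt6* KO 2 (0.0654) or *Sirt6* KO 3 (0.144) was left out, and held without WT 3 (0.014), all in edgeR. The number of all genes called lower fell as well, from 1158 in the main fit to 259, 153, 2, 442 and 5 in the same order. Without WT 3 that number was 2219. Over the 15 alternative fits the adjusted p of *Hibch* ran from 0.0103 to 0.144, with a negative fold change in each.

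**Figure D2:**
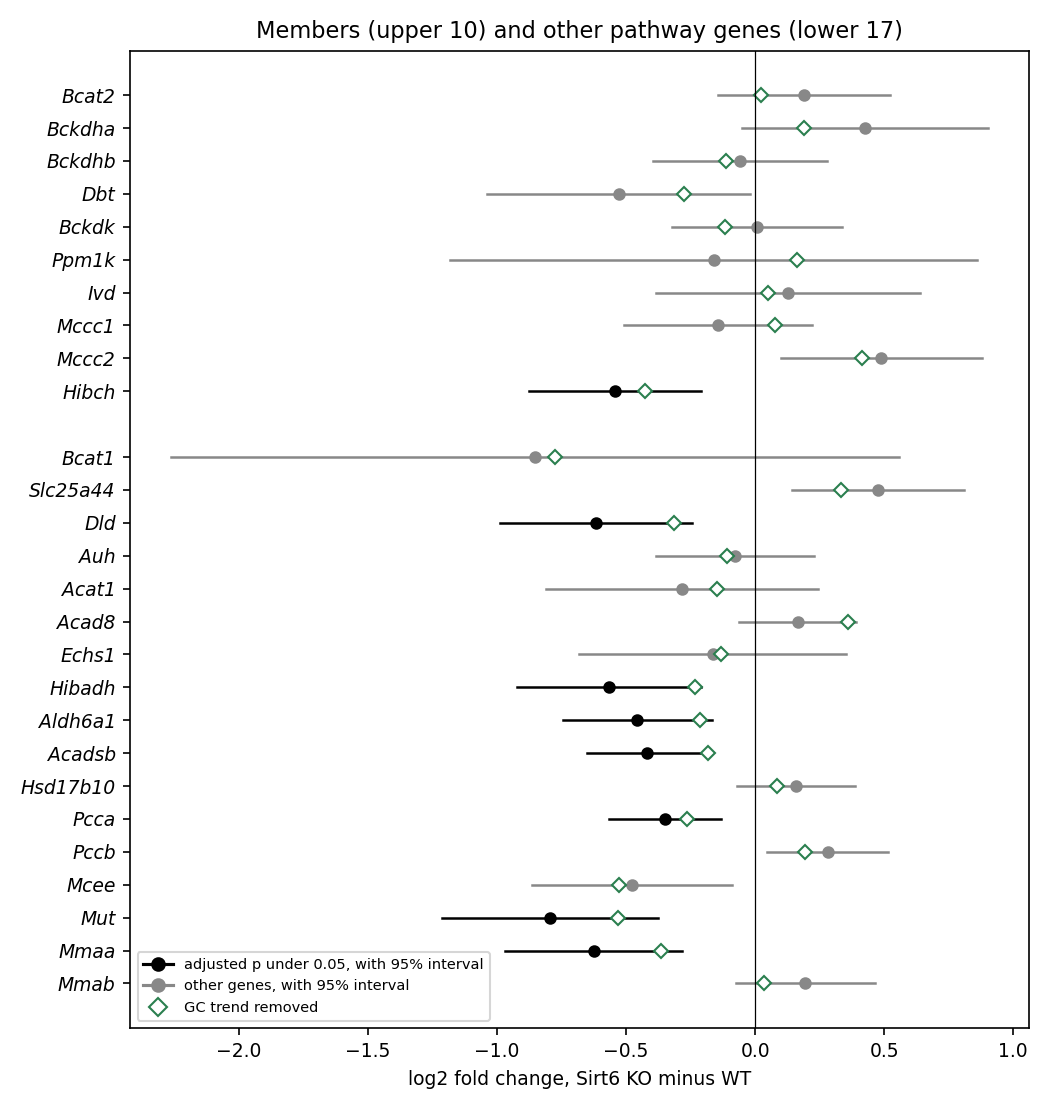
Log2 fold change (*Sirt6* KO minus WT) of the 10 genes and of 17 other genes of the pathway, with 95% intervals as lines, adjusted p under 0.05 in black, and the value with the GC trend removed as diamonds. *Hibch* is the only black point of the upper 10, and 7 of the lower 17 are black, all below 0. The diamonds lie nearer to 0 than the points for *Hibch* and for each of those 7 genes.

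Seen by library, *Sirt6* KO 2 was the highest library for 6 members, WT 2 for 3 and *Sirt6* KO 3 for 1. *Sirt6* KO 1 was the lowest for 6 members and WT 3 for 4. For 5 members (*Bckdhb*, *Dbt*, *Ppm1k*, *Ivd* and *Mccc1*) the 3 highest libraries were WT 1, WT 2 and *Sirt6* KO 2, the same as for the slow muscle sum and for *Hbb-bt*. *Sirt6* KO was below WT on both sides of the *Hbb-bt* split for 2 members, *Dbt* and *Hibch* (27.4% of all genes), and above WT on both sides for 3, *Bckdha*, *Ivd* and *Mccc2* (26.5% of all genes). With the split as a covariate 1 member was lower, *Hibch* (9.58% of all genes), and 1 higher, *Bckdha* (8.56% of all genes).

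**Figure D3:**
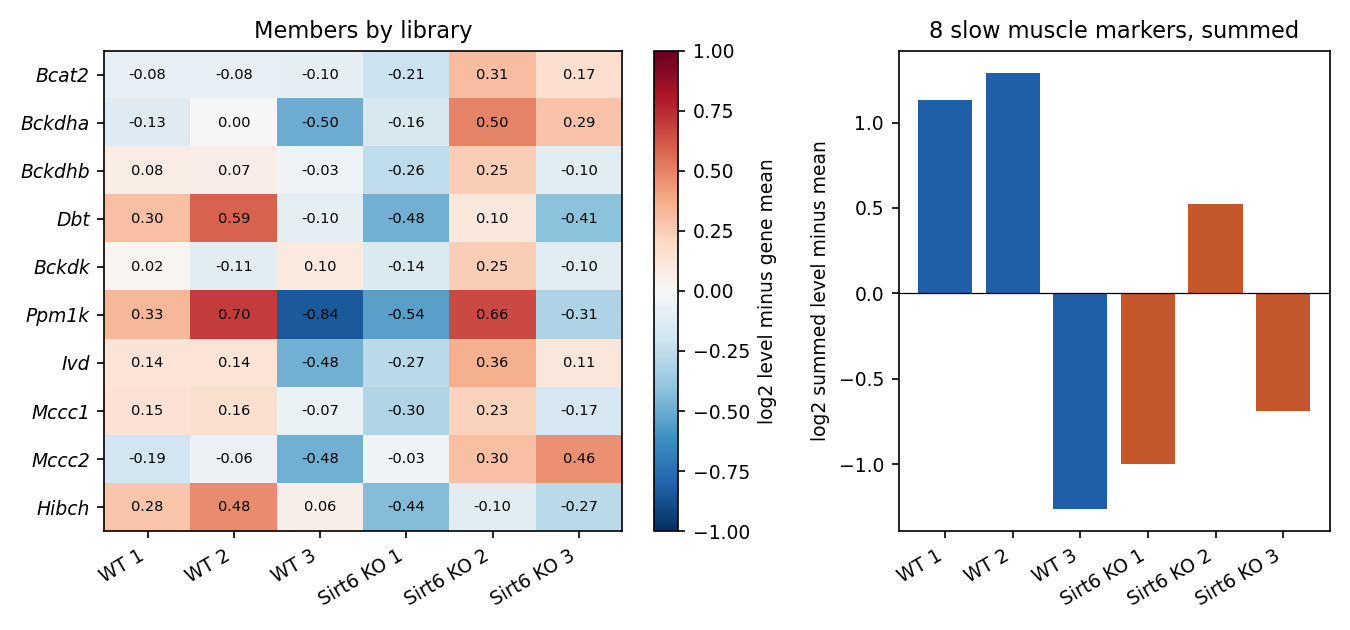
Left, the log2 level of each gene in each library minus the mean of that gene over the 6 libraries, from blue (low) to red (high); right, the log2 of the summed CPM of 8 slow muscle markers minus its mean. *Sirt6* KO 2 is above the gene's mean for 9 of the 10 genes, and WT 1, WT 2 and *Sirt6* KO 2 are the libraries with high slow muscle markers.

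The fold changes of the BCKDH subunits had both signs, and none passed the test. Ratios of TPM within a library, in which the scaling of the library cancels, are given as descriptions for 6 pairs chosen after the values were seen; with 3 libraries against 3, no exact permutation test could give a p under 0.1, and with the GC trend removed the log2 differences of the BCKDH ratios were smaller by over 1.5 times, as given below. *Dbt* over *Bckdha*, E2 over E1α, was 0.130, 0.144 and 0.127 in WT and 0.0770, 0.0732 and 0.0595 in *Sirt6* KO. The ratio in *Sirt6* KO was 0.520 times that in WT (-0.94 on the log2 scale), with no overlap. *Bckdha* over *Bckdhb*, E1α over E1β, was 4.74, 5.21 and 3.95 in WT and 5.84, 6.50 and 7.17 in *Sirt6* KO, with each *Sirt6* KO library above each WT library (0.49 on the log2 scale). *Dbt* over *Bckdhb* was 0.616, 0.752 and 0.502 in WT and 0.449, 0.476 and 0.427 in *Sirt6* KO, lower in each *Sirt6* KO library (-0.45 on the log2 scale).

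In both carboxylases of the pathway the β subunit stood higher against the α subunit in *Sirt6* KO. *Mccc2* over *Mccc1* was 0.482, 0.521 and 0.456 in WT and 0.733, 0.636 and 0.938 in *Sirt6* KO (0.64 on the log2 scale). *Pccb* over *Pcca*, the β and α subunits of propionyl-CoA carboxylase, was 1.59, 1.66 and 1.86 in WT and 2.63, 2.64 and 2.61 in *Sirt6* KO (0.63 on the log2 scale). The α subunit is the one that bears the biotin, and the groups did not overlap for either pair. Both pairs were chosen after their values were seen, and the share of all gene pairs that lie apart was not computed. With the GC trend removed the log2 differences were 0.34 and 0.46. *Bckdk* over *Ppm1k*, kinase over phosphatase, was 18.7, 13.2 and 44.5 in WT and 30.5, 17.4 and 26.8 in *Sirt6* KO, and the WT libraries enclosed those of *Sirt6* KO.

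**Figure D4:**
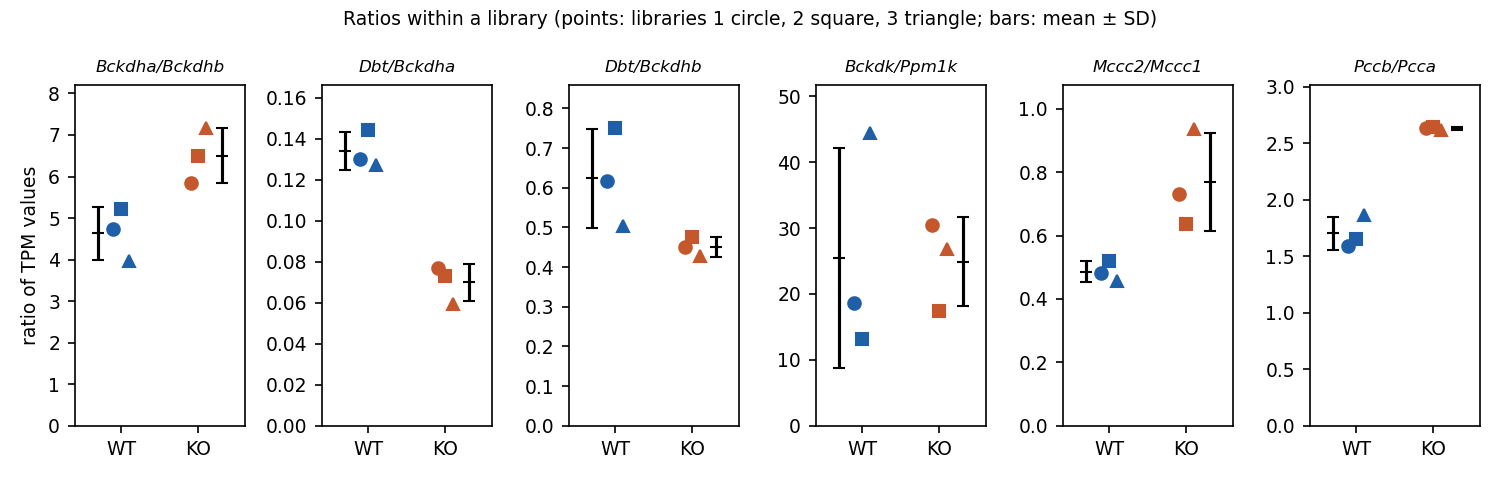
TPM of one gene over TPM of another in the same library for 6 pairs, on linear axes from 0; bars are mean ± SD of 3 libraries. The pairs were chosen after their values were seen. The groups lie apart in 5 panels, with *Dbt* over *Bckdha* at 0.134 in WT and 0.0699 in *Sirt6* KO on average, and overlap for *Bckdk* over *Ppm1k*; the share of all gene pairs that lie apart was not computed.

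Genes with GC-rich transcripts tended to have higher fold changes. *Bckdha*, the highest of the 10 in GC content at 57.9%, had a log2 fold change of 0.43, and *Dbt*, at 42.1%, one of -0.53. Spearman's rho between GC content and log2 fold change was 0.782 over the 10 members and 0.334 over 13715 genes, given as descriptions, since genes measured in the same libraries are not independent replicates. With the trend over GC content removed per library, the log2 differences of the ratios were -0.46 for *Dbt* over *Bckdha*, 0.30 for *Bckdha* over *Bckdhb*, -0.16 for *Dbt* over *Bckdhb*, 0.34 for *Mccc2* over *Mccc1* and 0.46 for *Pccb* over *Pcca*. These kept their sign and were smaller, down to -0.16 from -0.45 for *Dbt* over *Bckdhb*, whereas *Bckdk* over *Ppm1k* turned from 0.12 to -0.28. By the same correction 0 of the 10 members passed in edgeR (2 at an unadjusted p under 0.05), where 3.52% of all genes were lower and 3.41% higher, and the members' median log2 fold change was 0.04. The GC content of *Hibch* was 45.9% and that of *Mccc2* 51.0%, and both lay outside the middle 50% of genes of like GC content.

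**Figure D5:**
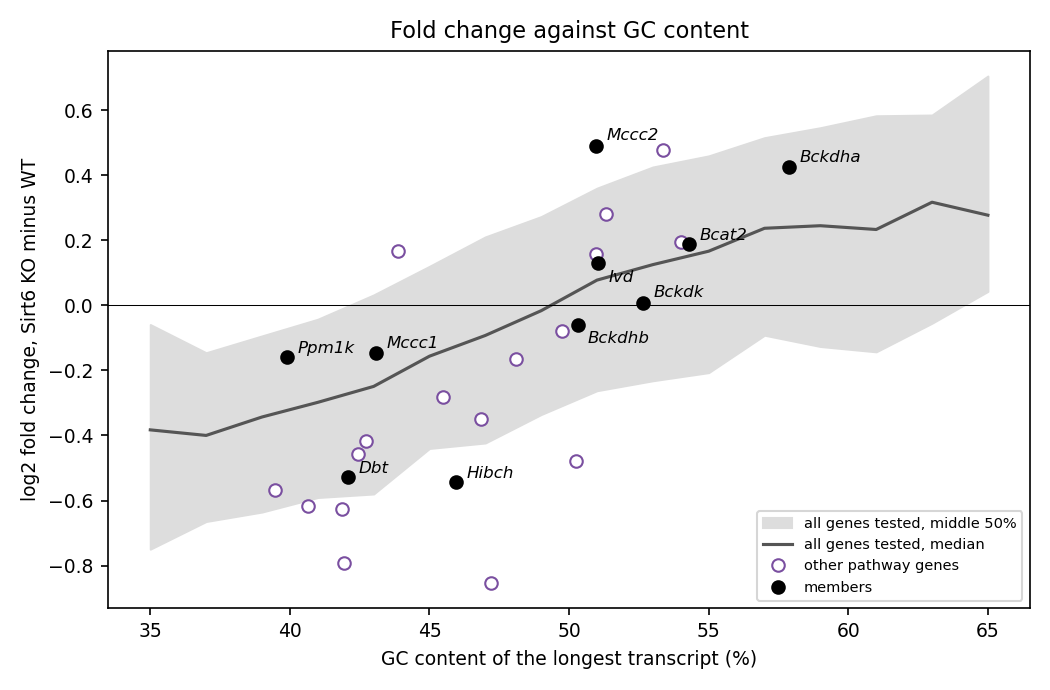
Log2 fold change (*Sirt6* KO minus WT) against the GC content of the longest transcript; filled points are the 10 genes, open points the 17 other pathway genes, the line the median of all genes in 2% bins and the band their middle 50%. The line rises from -0.30 at 40 to 42% to 0.24 at 56 to 58%, and *Hibch* lies below the band and *Mccc2* above it.

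A list of 17 other genes of the pathway was drawn up with earlier results of these data known, so its counts are descriptions. Of the 17, 7 were lower in *Sirt6* KO (8.39% of all genes), 0 were higher (7.85% of all genes) and 10 did not pass. The median log2 fold change of the 17 was -0.35. *Mut*, methylmalonyl-CoA mutase, was at 111, 156 and 104 CPM in WT and at 62.7, 73.4 and 77.7 CPM in *Sirt6* KO (log2 fold change -0.79, adjusted p = 0.0293, edgeR). *Mmaa*, which acts in the cobalamin supply of that mutase, fell by 0.63 on the log2 scale (adjusted p = 0.0324, edgeR). *Pcca* fell by 0.35 (adjusted p = 0.0435, edgeR). In the valine branch *Hibadh*, the dehydrogenase that acts on the product of HIBCH, fell by 0.57 (adjusted p = 0.0455, edgeR), and *Aldh6a1*, the semialdehyde dehydrogenase after it, by 0.46 (adjusted p = 0.0461, edgeR). *Bbof1* overlaps *Aldh6a1*, which bears the limit on strand. *Acadsb*, the acyl-CoA dehydrogenase of the isoleucine branch, was at 134, 141 and 128 CPM in WT and at 104, 102 and 96.8 CPM in *Sirt6* KO (log2 fold change -0.42, adjusted p = 0.0342, edgeR). *Dld*, the E3 subunit that BCKDH shares with the pyruvate and 2-oxoglutarate dehydrogenases, fell by 0.62 (adjusted p = 0.0408, edgeR).

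No gene of the 17 was higher in edgeR, with 2 positive at an unadjusted p under 0.05, *Slc25a44*, a mitochondrial carrier of branched-chain amino acids (log2 fold change 0.48, adjusted p = 0.0601, edgeR), and *Pccb* (0.28, adjusted p = 0.0943, edgeR), and both were higher with DESeq2. With limma the count higher was 2. The groups did not overlap for 8 of the 17 with *Sirt6* KO below WT (19.6% of all genes) and for 4 with *Sirt6* KO above (20.3% of all genes). With the GC trend removed, 0 of the 17 passed in edgeR (5 at an unadjusted p under 0.05) and their median was -0.18 (the median GC content was 46.8%, against 49.8% for all genes tested). With any library other than WT 3 left out, 0 of the 17 were lower or higher. In those fits 2 to 442 of all genes were lower and 6 to 431 higher. Without WT 3, 8 of the 17 were lower and 3 higher, where 2219 of 14115 genes were lower and 2363 higher. With the *Hbb-bt* split as a covariate 7 were lower and 1, *Slc25a44*, was higher (adjusted p = 0.0356, edgeR).

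Of the regulators, *Ppargc1a*, which encodes PGC-1α, was at 764, 1703 and 515 CPM in WT and at 45.6, 170 and 92.2 CPM in *Sirt6* KO, with no overlap (log2 fold change -3.28 ± 0.61 (SE), adjusted p = 0.0186, edgeR). *Klf15*, a transcription factor known to raise amino acid breakdown genes in muscle, was at 71.2, 133 and 82.7 CPM in WT and at 34.9, 50.8 and 38.1 CPM in *Sirt6* KO (log2 fold change -1.21 ± 0.26 (SE), adjusted p = 0.0246, edgeR). Both passed in each of the 9 alternative fits on all 6 libraries and lost the call without WT 2, *Sirt6* KO 1 or *Sirt6* KO 3, with adjusted p values up to 0.0861 for *Ppargc1a* and 0.104 for *Klf15*; *Ppargc1a* lost it also without WT 1 (0.0553). The count of all genes called lower also fell in the fits without these libraries, as given for *Hibch*. *Ppargc1b* (log2 fold change -0.24, adjusted p = 0.624) and *Esrra* (0.13, adjusted p = 0.609) did not pass in edgeR. Of the members, 1 had the same order of the 6 libraries as *Ppargc1a*, *Hibch*, with WT 2 highest, then WT 1, WT 3, *Sirt6* KO 2, *Sirt6* KO 3 and *Sirt6* KO 1. For both genes each *Sirt6* KO library was below each WT library, which fixes part of that order. The share of all genes with the same order was not computed, and a link between the 2 genes was not tested. *Sirt6* KO 2, the highest library for 6 members, had 170 CPM of *Ppargc1a* against 515 CPM in the lowest WT library.

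The related complexes were read by the same test. By it 8.39% of all 13801 genes were lower and 7.85% higher, and 4875 of them had an unadjusted p under 0.05. Of 11 genes of the pyruvate dehydrogenase complex and its regulators, 1 was lower and 1 higher. *Dlat*, the E2 core of the complex, was lower (log2 fold change -0.67, adjusted p = 0.0391, edgeR), and *Pdp1*, 1 of its phosphatases, was higher. Of the 11 genes, 6 had an unadjusted p under 0.05 in edgeR and 3 were called with DESeq2, *Pdk4* being the third. The call of *Dlat* was lost with the GC trend removed (adjusted p = 0.0693, edgeR). *Pdp1* was at 36.0, 40.8 and 33.9 CPM in WT and at 143, 117 and 123 CPM in *Sirt6* KO (log2 fold change 1.79 ± 0.13 (SE), adjusted p = 0.00873, edgeR). *Pdp2*, another phosphatase of the pyruvate dehydrogenase complex, had a log2 fold change of -0.45 (adjusted p = 0.634, edgeR), and its groups overlapped. *Ppm1k*, the phosphatase of BCKDH, did not pass, as given above. The E2 genes *Dlat*, *Dbt* and *Dlst*, the last of 2-oxoglutarate dehydrogenase, had log2 fold changes of -0.67, -0.53 and -0.11, and only *Dlat* passed. With the GC trend removed these were -0.60, -0.27 and -0.09. Of the 2 genes of the 2-oxoglutarate dehydrogenase complex, *Ogdh* and *Dlst*, 0 passed in edgeR or DESeq2 and 0 had an unadjusted p under 0.05, the smaller p being that of *Ogdh* (log2 fold change 0.26, unadjusted p = 0.163, edgeR). None of 14 genes of the TCA cycle passed in edgeR (median log2 fold change -0.06; 2 at an unadjusted p under 0.05, 2 with DESeq2 and 1 with limma at a pseudocount of 1), with the smallest p for *Idh3g* (0.51, adjusted p = 0.0714, edgeR). None of 5 genes of lipoate and biotin handling passed in edgeR (1 at an unadjusted p under 0.05, 0 with DESeq2 and 1 with limma), with the smallest p for *Btd* (0.45, adjusted p = 0.0918, edgeR). None of 3 genes of the electron transfer flavoprotein passed in edgeR (1 at an unadjusted p under 0.05, and 1 with DESeq2), with the smallest p for *Etfa* (-0.63, adjusted p = 0.113, edgeR).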

How the data were processed

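Poly-A RNA of GAS muscle was sequenced by the authors in pairs of 100 bp reads (HiSeq). The labels name a stranded TruSeq kit and the methods an unstranded one. The submitters' processing notes list HISAT2 2.1.0, Bowtie2 2.3.4.1 and StringTie 2.1.3b, whereas the reporting summary names STAR; the build was mm10 (GRCm38). The authors deposited raw counts per gene, as whole numbers with no scaling. Their deposited FPKM values account for length and depth, and the deposited TPM values sum to a fixed total per library. All 3 units are in 1 table, with no column of other samples.

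Groups and replicate numbers came from the sample labels; each library is a separate animal. Counts were tested in R 4.3.3 with edgeR 4.0.16: filterByExpr (13801 genes kept), TMM factors (0.909 to 1.11), a quasi-likelihood fit on the group alone, and Benjamini-Hochberg adjustment over all genes at 0.05. Standard errors were derived from the test, and levels are TMM-normalized CPM. The biological coefficient of variation was 24.1%, 1 count was worth 0.0165 to 0.0212 CPM, and no libraries of a group agreed within sampling noise. FPKM values were used in the limma fits only, and TPM values for levels between genes and for ratios. The figure legend of the study names a Wald test in DESeq2 and its methods quantile-normalized log2(FPKM + 1); both were run as alternatives (DESeq2 1.42.0, limma 3.58.1 with pseudocounts of 1 and 0.1).

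Other alternatives were DESeq2's size factors, a minimum of 10 counts per library or no minimum, a replicate block, fits without 1 library, the 2-fold rule of the legend, and removal of a lowess trend (span 0.3) over the GC content of the longest GENCODE M21 transcript, known for 99.4% of the genes tested. A covariate for libraries with and without *Hbb-bt* counts, and the ratios, came after the values were known. The fits were also run on simulated counts that held neither the GC trend nor the split between libraries, as a check of the code only. Gene positions and promoters are RefSeq's on GRCm38.p6, with 24462 of 24532 genes matched. Named in the text are all members, *Sirt6*, wider pathway genes past the threshold and 4 regulators. From each comparison list the genes past the threshold are named, or else that with the smallest p. *Hbb-bt*, *Lep*, *Fabp4*, *Adipoq*, *Cfd*, *Bcat1*, *Slc25a44*, *Pccb*, *Pdp2*, *Ogdh* and *Dlst* were named after their values were seen. The members and lists were chosen with earlier results of these data known, so the counts over them are descriptions. The result of 1 gene of the wider pathway list is not reported here, and it is left out of the counts.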

Additional observations from a re-analysis of the deposited data

How the results depend on the processing

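The count of members lower in *Sirt6* KO was 1 (*Hibch*) in the main fit, with DESeq2, with DESeq2's size factors, with at least 10 counts in every library, with the replicate block and with the *Hbb-bt* covariate. It was 0 without a filter on low counts, with limma at either pseudocount, with the GC trend removed and by the 2-fold rule, and lay between 0 and 2 with a library left out, where 2 (*Dbt* and *Hibch*) came without WT 3. Members higher were 0 under every alternative fixed at the outset and 1 (*Bckdha*) with the *Hbb-bt* covariate. Wider pathway genes lower were 7 in the main fit, 3 without a filter, 0 with the GC trend removed and by the 2-fold rule, and 0 to 8 with a library left out. Those higher were 0 in the main fit, 2 with DESeq2 and with limma at either pseudocount, 1 with the replicate block, 1 with the *Hbb-bt* covariate, and 0 to 3 with a library left out. Over all genes, 1158 were lower and 1084 higher in the main fit, 1746 and 1674 with DESeq2, 483 and 468 with the GC trend removed, 647 and 434 by the 2-fold rule, and 2 to 2219 and 6 to 2363 with a library left out. With a library left out *Sirt6* had log2 fold changes from 1.37 to 1.55. Fold changes that turned sign were all of members that passed in no fit where they did so: *Bckdk* (-0.0018 with the replicate block, -0.12 with the GC trend removed, -0.11 to 0.080 with a library left out), *Ppm1k* (0.16 with the GC trend removed, 0.27 with the *Hbb-bt* covariate, -0.61 to 0.18 with a library left out), *Mccc1* (0.076 with the GC trend removed), *Bckdhb* (0.016 with the *Hbb-bt* covariate, -0.20 to 0.048 with a library left out) and *Ivd* (-0.047 to 0.28 with a library left out). Except where a sample or gene was dropped by construction, the cause was not tested. Same-numbered libraries deviated together with correlations of -0.137, 0.336 and 0.220, so the numbers were not taken as pairs; under the replicate block the count of members lower stayed at 1, and *Acadsb* (adjusted p = 0.0565), *Aldh6a1* (0.052) and *Pcca* (0.0702) no longer passed in edgeR. Every member had at least 440 counts in every library, so counting error was small beside the spread between libraries.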
